A study of Caenorhabditis elegans with 4 samples.

Results

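The right end of Caenorhabditis elegans chromosome X held 341 of the 6192 genomic regions called as bound by the tagged transcription factor GEI-11 in L3 larvae. A region belonged to this stretch if its midpoint lay at or above position 13000000 of chromosome X in the WormBase WS220 genome, and the last region called on the chromosome ended at position 17627636. The stretch was chosen by the number of combined regions per Mb, which earlier counts of the same lists had shown to be high there. Its number of regions, and their width and strength, which come from the same comparison of ChIP with input, are therefore described without a test.

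GEI-11, also named SNPC-4, is the worm counterpart of the DNA-binding subunit of the small nuclear RNA activating complex. In human cells this complex binds a promoter element upstream of small nuclear RNA genes and recruits RNA polymerase II or III to them. In worms SNPC-4 is also needed for transcription of piRNAs, germline small RNAs that act against transposons and other foreign sequences, most of whose genes lie in broad domains of chromosome IV. Chromosome X lies outside those domains, and in hermaphrodites it is present in a pair of copies, subject to dosage compensation in somatic cells and largely silent in the germline.

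There were 2 anti-GFP ChIP libraries and 2 input DNA libraries, replicates 1 and 2 of each, all from hermaphrodites of strain OP179 grown at 20 °C to the L3 stage and crosslinked with 2% formaldehyde. All groups carried the mutation unc-119(ed3) on chromosome III and the transgene wgIs179, inserted by bombardment, which holds unc-119(+) and GEI-11 fused to TY1, EGFP and 3xFLAG tags. Chromatin came from whole worms, so the regions pool all cell types, and the samples used here include no strain without the tag. Whether the replicates were separate cultures is not stated in the labels, and differences between them may therefore be technical alone.

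The sample sheet gave 3773496 and 3560372 total reads for ChIP replicates 1 and 2, and 8331974 and 7222788 for input replicates 1 and 2. Its numbers of uniquely mapped ChIP reads, which look rounded, were 2500000 for replicate 1 and 2800000 for replicate 2, the opposite order. The data are 3 lists of regions called with PeakSeq, in which each region is enriched in ChIP over input with a q-value below 0.01. The combined list pooled the ChIP libraries, and a shorter list was made from each ChIP replicate. A region's strength is given as −log10 of the authors' q-value, which depends on depth and so orders regions inside one list but is no level of binding to set between lists.

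Within chromosome X, regions stood closer together in the right end than in the rest. In the combined list the right end had 73.7 regions per Mb (95% exact Poisson interval 66.1 to 81.9), against 37.4 per Mb (34.1 to 40.9) in the rest of X, a ratio of 1.97. The replicate 1 list had 239 regions there, or 51.6 per Mb, against 26.2 per Mb in the rest of X. The replicate 2 list had 169, or 36.5 per Mb, against 14.2 per Mb, a ratio of 2.57. The right end made up 26.3% of the chromosome's length, and its share of the X regions was 41.2% in the combined list. That share was 41.2% by replicate 1 and 47.7% by replicate 2. These intervals cover counting error only and treat neighbouring regions as independent.

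The border was not marked by strong regions. The last 3 regions below it had strengths of 2.23, 3.38 and 3.12, and the first 3 at or above it had 2.33, 2.84 and 4.67. The last below it spanned 12975598 to 12975962, and the first inside spanned 13046245 to 13046636. None of the 3 below was found in either replicate list. The first inside was also in neither list, the next was in replicate 1 alone and the third was in both. Over the whole combined list 30.7% of regions were in neither list.

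Each of the 4 full 1 Mb bins of the right end held more combined regions than any of the 13 bins of the rest of X. The bins starting at 13, 14, 15 and 16 Mb held 67, 68, 108 and 71 combined regions, while the rest of X ranged from 24 to 56 with a median of 37. In replicate 1 the same bins held 42, 53, 82 and 45 regions, against 17 to 40 in the rest of X. In replicate 2 they held 26, 40, 53 and 36, against 6 to 28. The replicate 2 ranges overlapped, since the bin from 2 to 3 Mb, with 28 regions, passed the one from 13 to 14 Mb. The final bin, cut at the last called position after 0.628 Mb, held 27 regions, or 43.0 per Mb, so the density was lower toward the tip.

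**Figure D1:**
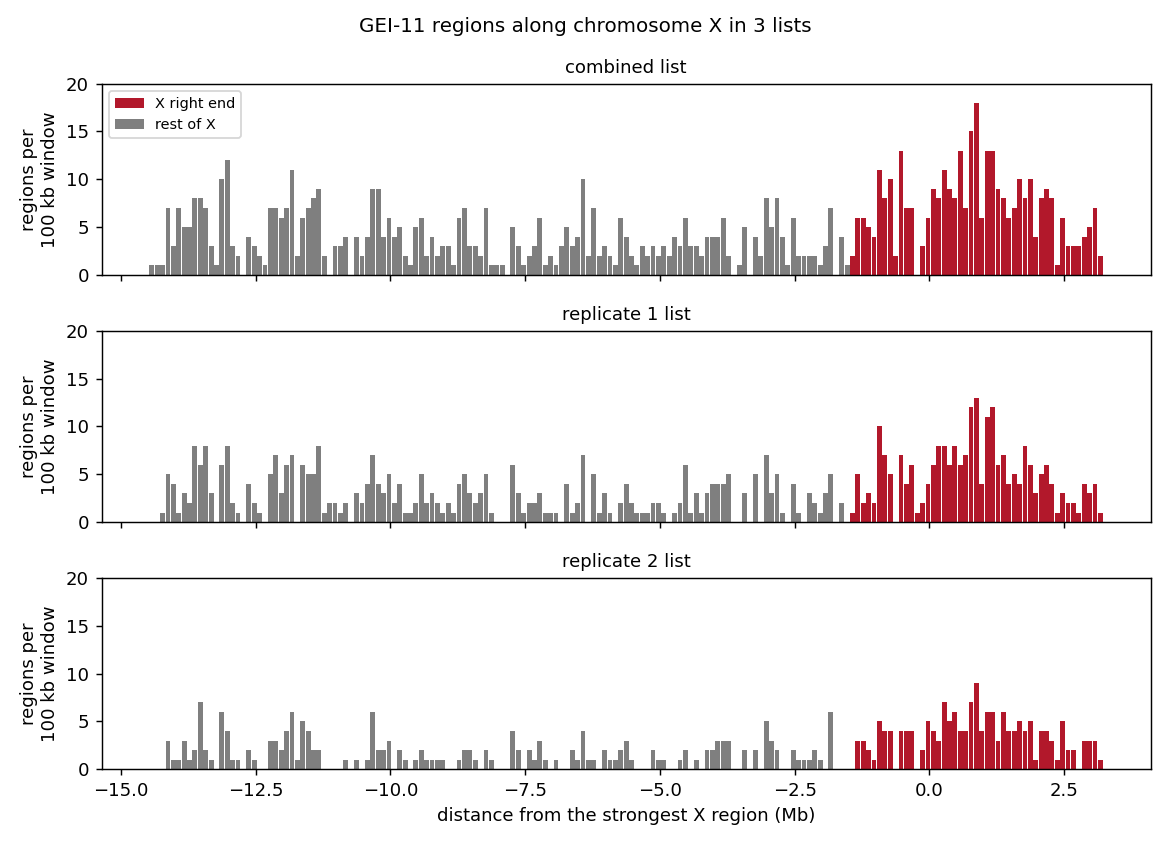
Number of GEI-11 regions (y axis) in 100 kb windows along chromosome X, placed by distance in Mb from the strongest X region (x axis), in the combined list and in the lists of ChIP replicates 1 and 2; red bars are the right end and grey bars the rest of X. The tallest window held 18 combined regions, 13 in replicate 1 and 9 in replicate 2, and the windows of the rest of X reached at most 12, 8 and 7.

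The density of the right end was close to that of the right ends of chromosomes II and III, while the rest of X was sparser than the rest of those chromosomes. Over right ends of the same length, 4.63 Mb, in the combined list as analysed here, chromosome II had 72.8 regions per Mb, chromosome III had 71.7 and chromosome IV had 149. Set against the rest of their own chromosome, these ends were 1.32, 1.10 and 1.64 times as dense, and those of chromosomes I and V were 0.82 and 0.65 times as dense. The combined list may lack rows, since no combined region overlapped the top-ranked call of replicate 1 or that of replicate 2, both on chromosome II. The chromosome II values rest on that list. The left end of X at the same length had 47.3 regions per Mb and its middle 31.9. Over the 63 full 1 Mb bins of chromosomes other than IV and X the median was 52 regions and the highest number 93. The bin from 15 to 16 Mb of X, with 108, was above that range, and the other full bins of the right end lay inside it.

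In finer windows of 100 kb the right end was uneven. Its 46 full windows held a median of 7 combined regions, from 0 to 18, against a median of 3 and a range of 0 to 12 over 130 windows of the rest of X. At least 10 regions were counted in 11 windows of the right end and in 4 of the rest of X. The fullest window ran from 15.3 to 15.4 Mb, with 18 combined regions between 103 and 1355 bp wide and between 2.09 and 29.0 in strength. Both replicate lists overlapped 9 of these 18, replicate 1 alone overlapped 3, and 6 were in neither. Its strongest region spanned 15353522 to 15354497.

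One window, from 14.2 to 14.3 Mb, held no region of the combined list as analysed here. It lay in the longest gap of the stretch, 138 kb between positions 14174123 and 14312306. Replicate 2 had no region in this gap, and replicate 1 had 1, only 27 bp wide, from 14221214 to 14221240 with a strength of 2.16. The next longest gap, 94.5 kb from 17056599 to 17151088, held no region of either replicate list. Whether rows missing from the combined list bear on the empty window is not known.

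The strongest regions of the right end were found in both replicates, as were all of the 620 strongest regions of the whole combined list. Overlap by both replicate lists was a condition for the 12 described here, so it is no result about them. They lay on either side of the fullest bin of the right end. The 12 strongest that both replicate lists overlapped were ranked 9 to 196 of the 6192 combined regions, with strengths from 30.3 to 184. Of these, 6 lay between 13 and 15 Mb and 6 beyond 16 Mb, so that none lay in the bin from 15 to 16 Mb. That bin did hold 8 of the 29 regions with a strength of at least 20. The 12 strongest were between 540 and 2643 bp wide, with a median of 1038.5 bp, against 367 bp for all 341.

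The top region, from 14476486 to 14477751, had a strength of 184 in the combined list, with 112 in replicate 1 and 111 in replicate 2. It was the strongest on chromosome X, where the strongest region outside the right end reached 64.2. It headed a tight cluster. Only 219 bp separated it from the second region of the stretch, from 14477971 to 14479018, which had a strength of 99.4 in the combined list, with 62.1 in replicate 1 and 60.5 in replicate 2. Another 2 regions followed, from 14480112 to 14480546 with a strength of 23.2 and from 14481612 to 14481884 with 5.81. All 4 were found in both replicates, so that 5.40 kb of chromosome held 4 separate calls in each of the 3 lists, with strength lower at each step to the right. Within 50 kb to the left of the top region there was 1 combined region, of strength 2.40 and in neither replicate list.

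A further strong region lay 47593 bp to the right of the top one, from 14525345 to 14526264. Its strength was 54.4 in the combined list, with 38.9 in replicate 1 and 19.3 in replicate 2. The difference in −log10 q between replicates was wider than at the top pair, but it depends on depth and does not measure binding. On the far side of the densest part, the widest region of the stretch spanned 2643 bp from 16929342 to 16931984. It had a strength of 66.8 in the combined list, with 37.1 in replicate 1 and 27.1 in replicate 2, and was called 2575 and 2553 bp wide in those replicates. A region from 16056162 to 16056886, with 62.0 in the combined list, with 36.5 in replicate 1 and 34.9 in replicate 2, stood 15436 bp from its nearest neighbour.

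Most of the other strong regions were single calls in each replicate, and 2 were not. The region from 16565717 to 16566645, of strength 42.8, was called as 2 pieces in each replicate. The left piece had strengths of 6.99 in replicate 1 and 4.01 in replicate 2, and the right piece 14.5 and 15.6. The pieces had nearly the same bounds in both replicates, the right one at 16566302 to 16566624 in replicate 1 and at 16566298 to 16566637 in replicate 2. The combined call thus joined a pair of enriched places that each replicate separated. The second-widest region, 2540 bp from 13143170 to 13145709 with a strength of 31.1, was 1 region of strength 15.5 in replicate 1. In replicate 2 it was 2 regions, of strengths 6.44 and 8.36.

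The remaining 5 of the 12 had strengths of 30.3 to 41.6. The region from 16681763 to 16682465 had 41.6 in the combined list, with 25.2 in replicate 1 and 22.2 in replicate 2. The narrowest of the 12, 540 bp from 13700513 to 13701052, had 36.0 in the combined list, with 19.6 in replicate 1 and 19.1 in replicate 2. The −log10 q values of these regions differed less between the replicate lists than those at 14525345, which again is no comparison of binding. The third-widest region of the stretch, 1891 bp from 16611184 to 16613074, had 32.6 in the combined list, with 16.7 in replicate 1 and 13.9 in replicate 2. The region from 14707855 to 14708883 had 32.0, with 17.1 in replicate 1 and 17.3 in replicate 2. The region from 17479237 to 17480525, the strongest beyond 17 Mb, had 30.3, with 19.3 in replicate 1 and 13.9 in replicate 2. Replicate 1 had the higher −log10 q in 10 of the 12 regions, all but those at 16565717 and 14707855, which depends on depth and does not show more binding.

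**Figure D2:**
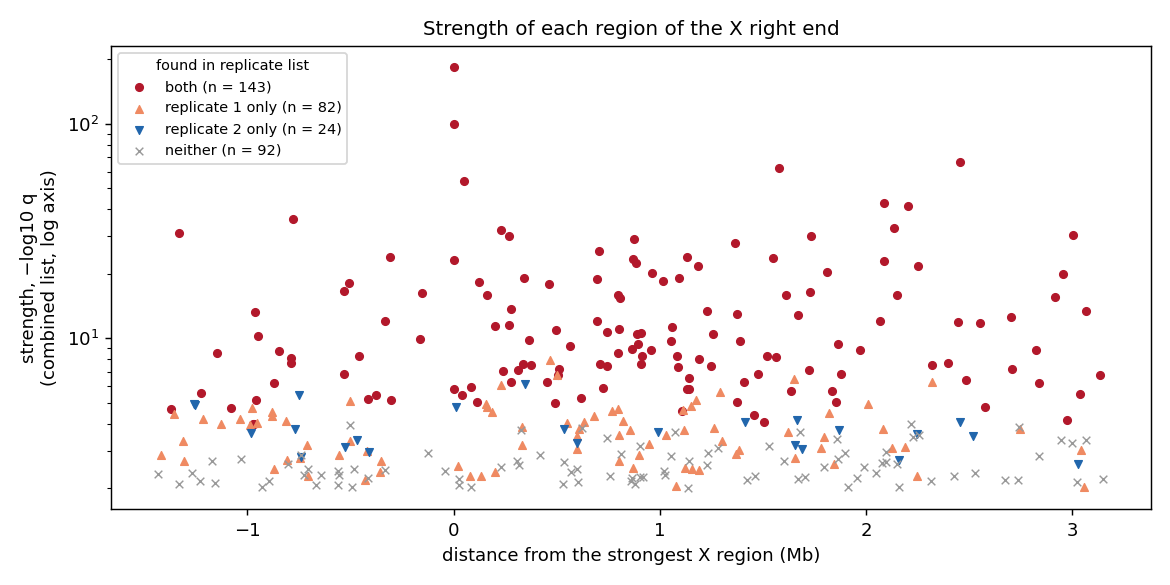
Strength in the combined list (−log10 q, log axis) of each of the 341 regions of the right end (points) against the distance in Mb from the strongest X region; marks show whether the replicate lists overlapped a region. The 143 regions found in both replicates fill the upper part, and the 92 found in neither stay at or below 3.98.

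Strength was uneven within the stretch, as it was in the genome. The median over the 341 regions was 4.14 (95% exact interval of the median 3.79 to 4.77), with an interquartile range of 2.71 to 8.16. It was 3.62 (3.34 to 3.95) over the 486 regions of the rest of X and 4.20 over the 5365 regions of the other chromosomes. The median of the other chromosomes lay inside the interval of the right end, and that of the rest of X lay below it. Of the 53 X regions with a strength of at least 20, 29 (54.7%) lay in the right end, as did 67 (50.4%) of the 133 X regions with at least 10. The right end held 41.2% of all X regions. Among the 620 strongest regions of the whole combined list were 45 of the right end, or 13.2% of its regions (95% exact interval 9.79 to 17.3%), and 39 of the rest of X, or 8.02% (5.77 to 10.8%). The share over the whole combined list, 10.0%, lay inside both intervals.

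The replicate lists overlapped a larger share of the right end than of the rest of X, with intervals that overlapped slightly. Both lists overlapped 143 of its 341 combined regions by at least 1 bp, or 41.9% (95% exact interval 36.6 to 47.4%), where the share over the whole combined list was 35.2%. In the rest of X it was 161 of 486, or 33.1% (29.0 to 37.5%), and on the other chromosomes 34.9%. Replicate 1 alone overlapped 82 regions of the right end (24.0%, 19.6 to 28.9%) and replicate 2 alone 24 (7.04%, 4.56 to 10.3%). The shares over the whole combined list, 28.1% and 6.09%, lay inside these intervals. The other 92, or 27.0%, were in neither list, where the share over the whole combined list was 30.7%. The interval of the right end lay above the value of the whole list for regions in both replicates and held it for regions in neither. Support and strength come from the same reads, so they are not independent of each other or of the density.

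Support differed between bins within the right end, as it did in the rest of X, where 1 Mb bins ranged from 17.1% to 44.8%. In the right end it was 26.9% (95% exact interval 16.8 to 39.1%) from 13 to 14 Mb, 52.9% (40.4 to 65.2%) from 14 to 15 Mb, 45.4% (35.8 to 55.2%) from 15 to 16 Mb and 38.0% (26.8 to 50.3%) from 16 to 17 Mb. The final bin had 13 of 27 regions in both, or 48.1%. The share over the whole combined list, 35.2%, lay inside the intervals from 13 to 14 Mb and from 16 to 17 Mb. It lay below those from 14 to 16 Mb. The first bin was thus as dense as the second, with 18 of 67 regions in both replicates against 36 of 68. The median strength was 3.77 in the first bin and 5.63 in the second.

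Support followed strength. The whole combined list was split by rank into 10 classes of equal size, class 1 being the strongest. Both replicates found all 45 regions of the right end in class 1, all 29 in class 2 and 34 of the 36 in class 3. The shares over the whole list in these classes were 100%, 97.6% and 82.6%. In class 4 both found 22 of 29, or 75.9%, against 69.0% in the rest of X and 48.8% over the whole list. In class 5 they found 10 of 32, where the whole list had 19%, and in class 6 they found 3 of 37, where it had 3.72%. None of the 133 in classes 7 to 10 was found in both, which allows a share of up to 2.74% by the exact interval. Over the whole list it was 1 of 2476 in these classes, or 0.04%, and in the rest of X 0 of 231. The lack of support in weak classes is therefore not particular to the right end.

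In groups of strength classes, the right end and the rest of X were closer in support than over all their regions. In classes 1 to 3, 98.2% (95% exact interval 93.6 to 99.8%) of 110 regions of the right end were found in both replicates, against 94.4% (88.7 to 97.7%) of 124 in the rest of X. In classes 4 to 6 the shares were 35.7% (26.3 to 46.0%) in the right end and 33.6% (25.6 to 42.4%) in the rest of X, with overlapping intervals. On the other chromosomes they were 93.0% and 22.3%. Single classes did not all show this smaller difference between the right end and the rest of X. In class 3 the share was 94.4% (81.3 to 99.3%) in the right end and 84.8% (71.1 to 93.7%) in the rest of X. These shares lay further apart than those over all regions, with overlapping intervals. The right end had the higher share in each of classes 3 to 6. In the other classes the shares were equal, at 100% in classes 1 and 2 and at 0% in classes 7 to 10. Shares at these limits leave little room for a difference, so closeness there carries little information. Whether strength accounts for the difference in support was not tested. The right end had 39.0% of its regions in classes 7 to 10, and the rest of X had 47.5%.

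**Figure D3:**
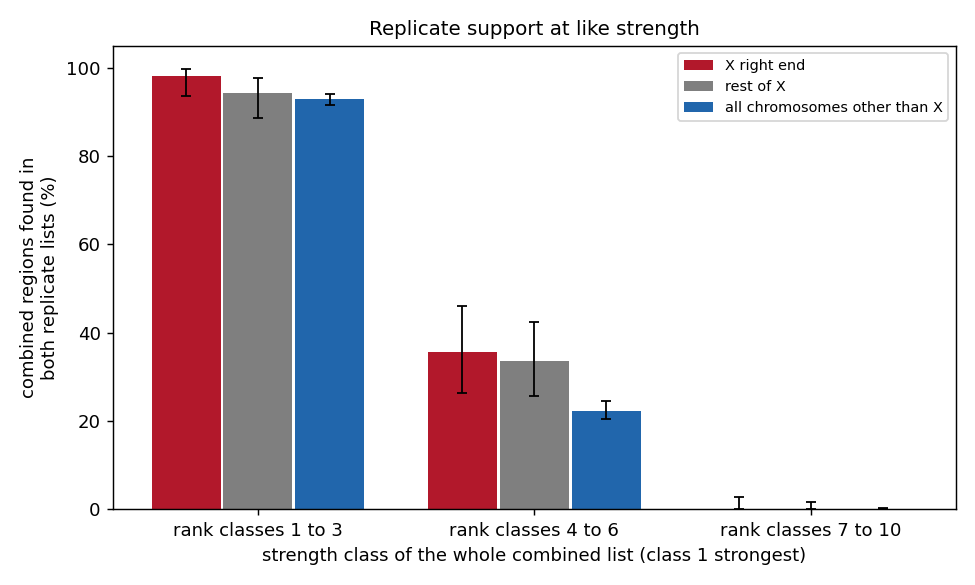
Share of combined regions found in both replicate lists (y axis, %) in 3 groups of strength classes of the whole combined list (x axis), for the right end of X, the rest of X and all other chromosomes; bars are shares and lines are exact 95% intervals. In classes 4 to 6 the right end had 35.7%, the rest of X 33.6% and the other chromosomes 22.3%.

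Regions found in 1 replicate were weaker. The strongest seen by replicate 1 alone spanned 14946380 to 14947031, with a strength of 7.95 in the combined list and 5.93 in replicate 1. The strongest seen by replicate 2 alone spanned 14824566 to 14825002, with 6.14 in the combined list and 4.26 in replicate 2. Among regions in neither list the strongest was from 16696746 to 16696954, with 3.98, and the next were from 13977402 to 13977760, with 3.95, and from 17217011 to 17217359, with 3.86. Median strengths were 9.39 for regions in both lists, 3.53 for replicate 1 only, 3.65 for replicate 2 only and 2.42 for neither. Median widths in the same order were 449, 365.5, 256 and 282 bp.

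The replicates ranked the shared regions alike. Across the 143 regions found in both, Spearman's rho between the replicate strengths was 0.80, a description across regions that share libraries and a combined input signal. It was 0.75 in the rest of X and 0.74 on the other chromosomes. Replicate 1 gave the higher strength in 100 of the 143 regions and replicate 2 in 43. The depth of the libraries can shift this split, but its part was not tested. Total and uniquely mapped reads put the replicates in opposite order. In the rest of X replicate 1 had the higher value in 116 of 161. The midpoints of the replicate calls were a median of 29 bp apart, and 132 of the 143 pairs overlapped by at least 50% of each call. Such overlap was seen in 154 of 161 pairs in the rest of X and in 1715 of 1875 on the other chromosomes. The combined call was stronger than each replicate call in all 143 and wider than each in 122. It was stronger in all 161 in the rest of X and in 1870 of 1875 on the other chromosomes. The combined list pools both ChIP libraries and strength depends on depth, so this order is no trait of the right end.

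**Figure D4:**
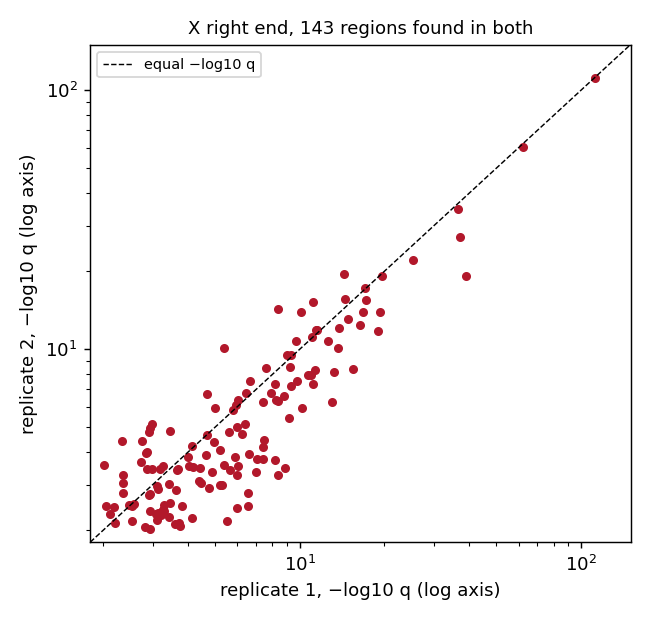
Strength (−log10 q, log axes) in replicate 1 (x axis) and replicate 2 (y axis) of the 143 regions of the right end found in both lists (points); the dashed line marks equal values. The top pair lies on the line, with 112 and 62.1 in replicate 1 against 111 and 60.5 in replicate 2, and 100 of the 143 points lie below it.

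Read from the replicate lists, 145 of the 169 replicate 2 regions in the right end overlapped a replicate 1 region, or 85.8% (95% exact interval 79.6 to 90.7%), where the share over the whole replicate 2 list was 84.5%. In the other direction 144 of the 239 replicate 1 regions overlapped replicate 2, or 60.3% (53.7 to 66.5%), where the share over the whole replicate 1 list was 51.1%. In the rest of X the shares were 87.0% (81.3 to 91.5%) for replicate 2 and 48.1% (42.7 to 53.5%) for replicate 1. All 169 replicate 2 regions overlapped a combined region, where the share over the whole replicate 2 list was 99.3%. Of the 239 replicate 1 regions, 10 (4.18%) overlapped none, against 31 (9.09%) in the rest of X and 8.45% over the whole replicate 1 list. These 10 were all absent from replicate 2 and no stronger than 2.41, the value of the region from 16657609 to 16657757. The next were from 16300438 to 16300632, with 2.25, and the 27 bp region at 14221214 already described.

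Regions of the right end were narrower than those of the rest of X. Their median width was 367 bp (95% exact interval of the median 345 to 388) with an interquartile range of 270 to 540 bp, against 438 bp (403 to 469) in the rest of X and 333 bp (329 to 337) on the other chromosomes. Class by class, the median of the right end was below that of the rest of X in 9 of the 10 strength classes. The exception was class 1, the strongest, with 703 bp in the right end against 646 bp in the rest of X. It was above that of the other chromosomes in 8 of the 10, all but classes 6 and 7. In classes 1 to 3 together the medians were 539.5 bp in the right end, 590.5 bp in the rest of X and 482.5 bp elsewhere. In classes 4 to 6 they were 344, 472 and 329 bp, and in classes 7 to 10 they were 298, 352 and 237.5 bp. The replicate lists gave the same order within X, with 334 bp in the right end against 401 bp in replicate 1 and 353 against 458 bp in replicate 2. Wider regions were stronger, with a Spearman's rho of 0.49 across the 341 regions, given as a description.

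The right end was also set beside the densest stretch of the genome, the part of a piRNA gene domain of chromosome IV from 14 to 17 Mb. The 509 combined regions there had a median width of 134 bp (117 to 152), and 132 of them (25.9%) were under 50 bp wide. In the right end of X 4 of 341 regions (1.17%, 95% exact interval 0.32 to 2.98%) were that narrow, as were 11 of 486 in the rest of X. Both replicates overlapped 41.9% of the regions in the right end of X and 22.6% (19.0 to 26.5%) of those in the chromosome IV interval. Median strengths were close, at 4.14 in the right end of X and 4.28 in the chromosome IV interval.

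Spacing followed the density. The median gap from a region to its nearest neighbour was 3702 bp (95% exact interval of the median 2987 to 4091) in the right end, against 5755 bp (5140 to 6758) in the rest of X and 3048 bp on the other chromosomes. A neighbour lay within 5 kb of 206 of the 341 regions, or 60.4% (55.0 to 65.6%), against 44.0% (39.6 to 48.6%) in the rest of X, 63.2% on the other chromosomes and 61.5% over the whole combined list. The right end was thus near the share of the whole list, and the rest of X lay below it. No neighbour lay within 20 kb of 16 regions (4.69%), against 100 (20.6%) in the rest of X and 8.40% over the whole combined list. No gap on X was shorter than 201 bp, and the shortest of the right end was the 219 bp beside the top region. The shortest in the whole combined list was 200 bp, so this floor is not particular to X.

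**Figure D5:**
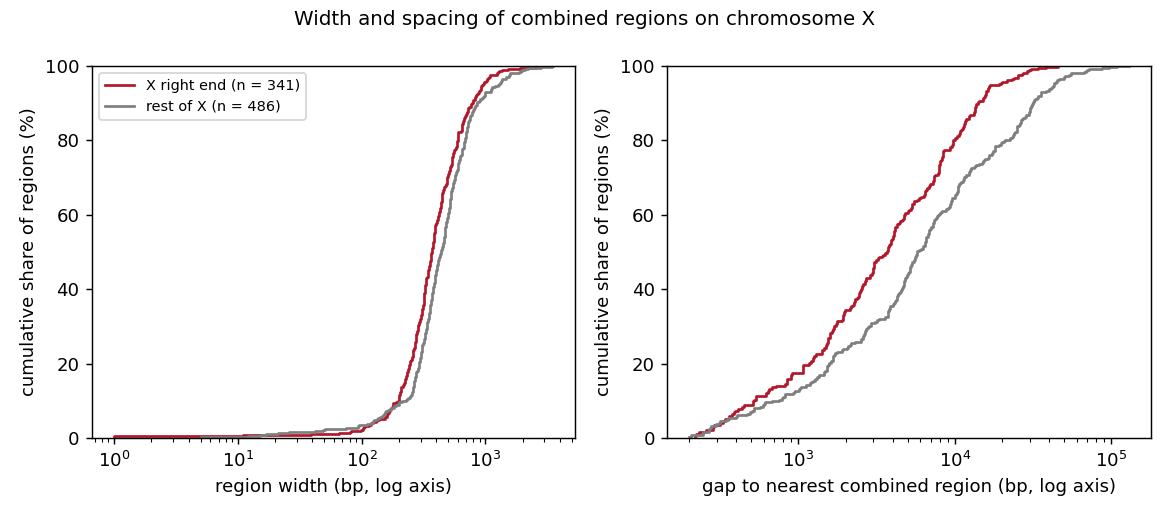
Cumulative share of combined regions (y axes, %) by width in bp (left, log axis) and by gap in bp to the nearest combined region (right, log axis), for the 341 regions of the right end and the 486 of the rest of X. The right end lies to the left in both panels, with medians of 367 and 3702 bp against 438 and 5755 bp.

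Linked at gaps of up to 5 kb, the 341 regions formed 206 clusters, of which 135 were single regions. There were 36 clusters of 3 or more, which held 136 regions or 39.9%, against 25 such clusters with 20.6% of the regions in the rest of X. At a fixed linkage a stretch chosen for its density has more such clusters by construction. Clusters were not formed on the other chromosomes, so no share over the whole list stands beside these. Clusters of 8 regions were the largest in both, so the right end had more clusters of 3 or more but none larger. Its largest spanned 15.3 kb from 15273767 to 15289032, and its strongest region, from 15274879 to 15275847, had a strength of 15.9. Both replicates found 4 of its 8 regions, replicate 1 alone found 3 and neither found 1.

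Clusters of like size differed in support. Of the 4 clusters of 6 regions, the one from 15606356 to 15620096 had 4 regions found in both replicates and was led by a region of strength 23.9. The one from 15073493 to 15084084 had none found in both, and its strengths ran from 2.13 to 3.77. A cluster of 5 from 14970308 to 14988487 had 4 in both, and every region of it had a strength of at least 5.01. A cluster of 4 from 13917322 to 13920700, within 3.38 kb, had none in both, with strengths from 2.07 to 2.85.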

How the data were processed

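Per the file headers, the authors deposited 3 lists of regions called with PeakSeq, each with a q-value as deposited, in WormBase WS220 coordinates counted from 1. The sample sheet names WS190, and comment lines record that coordinates were lifted over. Per that sheet, the combined list came from merged ChIP alignments, the replicate lists from 1 ChIP library each, and all lists share a combined input signal. Total read counts per library are those of the sheet the authors deposited. Its numbers of uniquely mapped reads, a score column as deposited by the authors, look rounded and entered no calculation. For the aligner, the PeakSeq version and settings, nothing is given in the sources used here.

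Regions were assigned by midpoint. Lists shared a region at an overlap of at least 1 bp, and the strongest overlapping call gave a replicate's strength. Shares have exact Clopper-Pearson 95% intervals, densities exact Poisson intervals and medians exact order-statistic intervals, which cover counting error only. No difference was tested, because the stretch was chosen for its density, and because strength, width and support come from the same reads. Single regions have no error estimate. The length of X was taken as its last called position.

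The named regions are the 12 strongest found in both replicates, the 3 widest, those beside the border, the fullest window, the largest cluster, the 3 strongest combined regions in neither replicate list and the 3 strongest replicate regions outside the combined list. The strongest regions seen by 1 replicate, other clusters, gaps and the window without a region were chosen after their values were seen. The stretch and these rules were chosen with earlier results of these data known. No region is assigned to a gene, since the only gene table used is of another build (WBcel235). Overlap, spacing, merging and interval steps were tested on simulated data. Python 3.11.15, NumPy 2.4.6 and SciPy 1.17.1 were used.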

Additional observations from a re-analysis of the deposited data

How the results depend on the processing

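Of 55 alternatives to 8 values, 35 stayed within the 95% interval of the value or, for numbers of regions, within 1.5 times. The ratio of densities, 1.97, was above 1 in all 9 of its alternatives: it was 1.84 with the border moved left by 0.5 Mb, 1.72 without the bin from 15 to 16 Mb (chosen after seeing the data), 2.50 among regions found in both replicates and 1.97 to 2.57 in single replicate lists. The stretch was chosen for its density and the alternatives reuse the same reads. A ratio above 1 was therefore close to fixed in advance and is no independent support. The number of regions, 341, was 171 among the best 50% of the list by q-value, 143 among regions found in both, and 169 to 239 in single lists. Among the best 50% of each list, both replicates found 81.9% of the combined regions, 97.5% of replicate 2 regions overlapped replicate 1, the median width was 449 bp and the median strength 8.16, and 45.0% had a neighbour within 5 kb. Among regions found in both replicates these last 3 values were 449 bp, 9.39 and 42.0%. In single lists they were 334 to 353 bp, 3.59 to 3.66 and 44.4 to 50.2%. Merging within 1000 bp left 53.1% with a neighbour within 5 kb. With 50% reciprocal overlap 79.3% of replicate 2 regions overlapped replicate 1, and 11 of the 12 named strongest regions were found in both, the exception being the one at 16565717. Shares over the whole lists were not calculated at these settings. In the whole combined list the share found in both replicates fell from 100% in class 1 to 19% in class 5. A rise in this share among the best 50% is therefore not particular to the right end. Fewer regions in a list leave fewer neighbours by construction; the cause of the other shifts was not tested. No paired analysis was possible because the input libraries have no values of their own in the lists. Regions in neither replicate list are weak, so absence from a replicate does not show that a place is unbound.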
